A study of Mus with 12 samples.

Results

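The genes described here are 38 genes of the lysosome: the transcription factors of the TFEB family, the cathepsins, other lysosomal hydrolases, membrane proteins of the lysosome and subunits of its proton pump. They were chosen by symbol, and all 38 were found among the 27294 genes of the deposited table, 1 row each. Gene expression was measured by sequencing poly(A) RNA from cells given in the labels as primary peritoneal macrophages of mice, which are taken from the abdominal cavity. There were 4 groups of n = 3 libraries: knockout (KO) cells with oxLDL, KO cells without a treatment label (called untreated here), wild-type (WT) cells with oxLDL and untreated WT cells. oxLDL is oxidised low-density lipoprotein, a modified cholesterol carrier that macrophages take up and break down. Titles of the treated libraries say LDL where their treatment label says oxLDL. The labels write KO with no gene, allele or Cre driver, and WEE1, named in the title of the series, is a kinase that delays entry into mitosis. The age and strain of the mice, the dose and time of oxLDL, and whether replicates came from separate mice are not stated in the labels. The p-values therefore measure the spread between these libraries, which may be technical.

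Lysosomes are acidic compartments in which macrophages digest what they engulf. Their enzymes work at low pH, which a proton-pumping ATPase of a membrane (V0) and a cytosolic (V1) part maintains. Cathepsins cut proteins, glycosidases trim sugars, and lipases and sphingolipid hydrolases release cholesterol, fatty acids and ceramide from lipoproteins and membranes. TFEB, TFE3 and MITF are related transcription factors that bind a shared motif near many lysosomal genes and move to the nucleus when lysosomes are stressed or nutrients are short, so their RNA level is not a measure of their activity.

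Total counts per library ran from 53588814 to 76809931, with replicate 2 of both WT groups shallowest, and 17291 genes were tested. Wee1 was lower in KO without being absent: 1.25 to 1.60 FPKM in KO with oxLDL, 1.22 to 1.63 in untreated KO, 1.44 to 1.78 in WT with oxLDL, and in untreated WT it was 2.80 to 3.25. In edgeR's test KO against WT was -0.53 ± 0.15 (adjusted p = 0.00587) with oxLDL, where the FPKM values overlapped, and -0.93 ± 0.14 (adjusted p = 1.39e-04) untreated. A gene-level count does not show a deleted exon, so this is a weak check of the genotype labels. All 6 macrophage markers were present, with summed levels of 8677 to 9676 FPKM in KO and 13303 to 19785 FPKM in WT libraries. Most of this was Lyz2, with 8171 to 9184 FPKM in KO and 12062 to 18667 in WT libraries. Adgre1, the gene of the macrophage surface protein F4/80, had 149 to 159 FPKM in KO and 533 to 776 in WT libraries. Fcgr1 had 8.96 to 9.45 and 39.4 to 137. With oxLDL Csf1r overlapped between genotypes, at 129 to 138 FPKM in KO and 134 to 140 in WT. Untreated it did not, at 130 to 133 FPKM in KO and 264 to 281 in WT. Itgam (151 to 160 and 170 to 175) and Mertk (44.5 to 50.1 and 58.0 to 60.1) differed less than Adgre1 with oxLDL. Their untreated values were 147 to 160 in KO and 192 to 213 in WT for Itgam. For Mertk they were 47.8 to 48.8 and 56.1 to 58.0. The markers of large peritoneal macrophages (Gata6, Icam2, Timd4 and Prg4) summed to 2.43 to 2.73 FPKM in KO and 3.49 to 5.14 FPKM in WT libraries. Timd4 had 0 to 0.117 FPKM in KO and 1.27 to 2.16 in WT, while Gata6, Icam2 and Prg4 overlapped between genotypes. RNA of these resident-type markers was low in every group, which does not settle the type of macrophage. The 9 lists for B, T, NK, mast and dendritic cells, neutrophils, eosinophils, adipocytes and mesothelial cells with fibroblasts summed to at most 6.74 FPKM each in any library. Some of these low sums differed between genotypes. The eosinophil list, nearly all Siglecf, had 2.76 to 3.21 FPKM in KO and 0.0694 to 0.517 in WT libraries. Lower in KO were the NK (0 to 0.0828 against 0.744 to 1.76), mast cell (0.870 to 1.37 against 1.96 to 4.44) and neutrophil lists (2.04 to 2.74 against 2.86 to 4.10). Markers of macrophages and of some other cells thus differed between genotypes to unequal extents. Their part in the results below was not tested.

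The 38 genes together took up 13.9 to 14.3% of all summed FPKM in KO libraries, against 6.92 to 7.03% in WT libraries with oxLDL and 10.1 to 10.4% in untreated WT libraries. FPKM is the count of fragments scaled by transcript length and sequencing depth, so it can be compared between genes of a library. Ctsd, which encodes the aspartic protease cathepsin D, averaged 12275 ± 496 FPKM in KO with oxLDL, 12415 ± 355 in untreated KO, 4052 ± 76 in WT with oxLDL and 7531 ± 99.8 in untreated WT (SD, n = 3 for every FPKM mean here), which made it the most abundant gene of the table in both KO groups. Psap, the precursor of the saposins that help sphingolipid hydrolases, averaged 11897 ± 227 FPKM in KO with oxLDL, 11702 ± 369 in untreated KO, 5637 ± 198 in WT with oxLDL and 8517 ± 233 in untreated WT. With Ctss and Ctsb these genes made up 80.4 to 80.7% of the members' FPKM in KO and 75.3 to 78.5% in WT libraries. At the other end, Ctsf averaged 0.448 ± 0.11 FPKM in KO with oxLDL and 0.123 ± 0.094 FPKM in WT with oxLDL, and every member passed the filter on low counts. In bulk RNA, fewer cells of a type and less RNA per cell cannot be told apart.

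**Figure D1:**
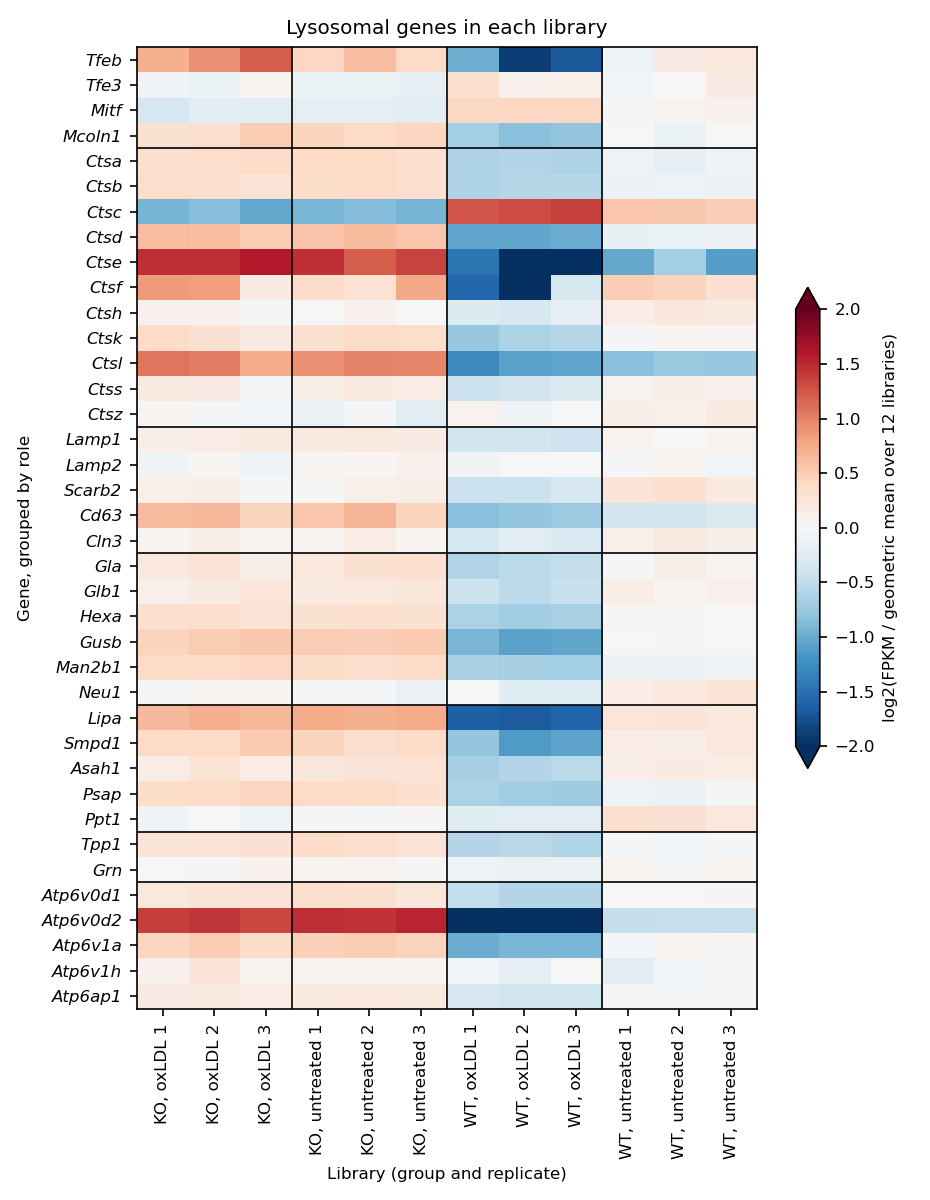
Level of each of the 38 genes (rows, grouped by role) in each of the 12 libraries (columns), as log2 of FPKM over the gene's geometric mean across libraries, with the colour range held at 2 either side of 0. For most genes WT libraries with oxLDL are lowest and KO libraries highest, while Ctsc and Mitf run the other way.

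Laid out by level, 22 of the 38 genes fell into the same 3 tiers of FPKM, with all WT libraries with oxLDL below all untreated WT libraries and these below all 6 KO libraries. Among all genes tested 8.9% had this order. Mitf and Ctsc were the 2 members with every KO library below every WT library (13% of all genes tested), and WT with oxLDL was their highest group. FPKM rests on library totals, and a difference in total between groups shifts every gene. All log2 changes below are therefore edgeR fits on TMM-scaled counts, with ± for their standard error (SE), and called means an adjusted p (Benjamini-Hochberg, across all genes tested) below 0.05. TMM factors, which correct for RNA composition, ran from 1.03 to 1.04 in KO libraries, from 0.832 to 0.843 in WT libraries with oxLDL and from 1.10 to 1.13 in untreated WT libraries. Scaled by library totals alone, the median change of all genes was -0.46 log2 for oxLDL in WT (-0.06 with TMM), 0.36 for KO against WT with oxLDL (0.05 with TMM) and -0.12 for KO against WT untreated (-0.01 with TMM).

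**Figure D2:**
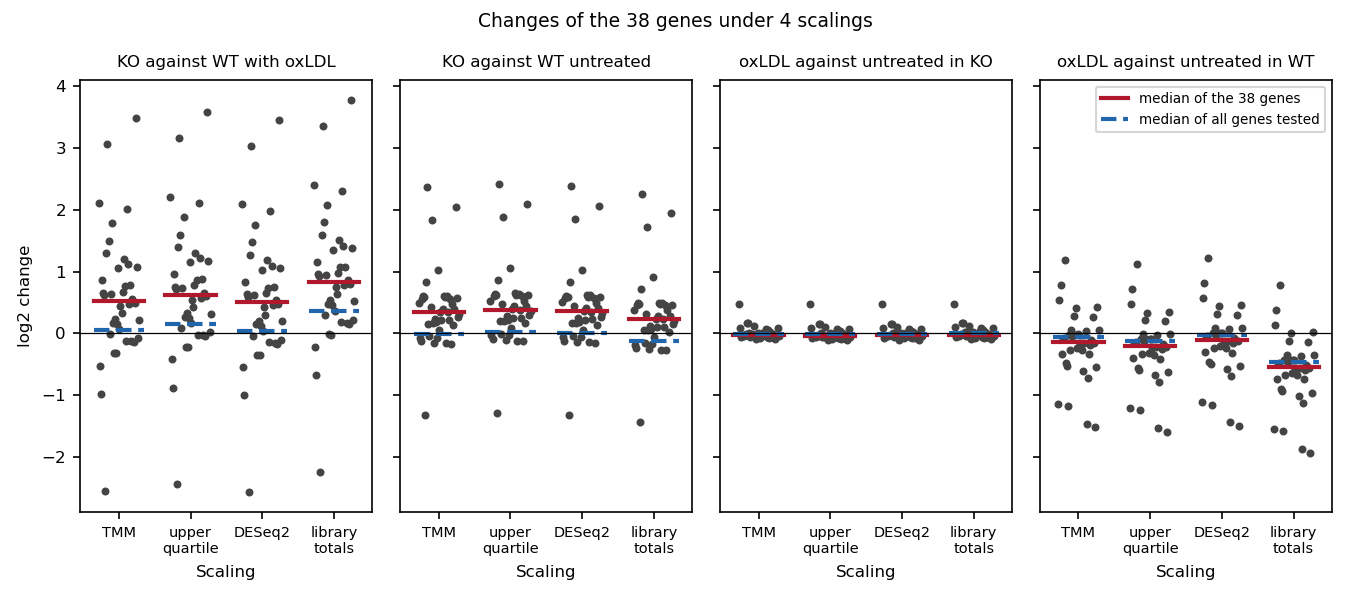
Log2 change of each of the 38 genes (points) in 4 comparisons under 4 scalings of the counts, with the median of the 38 genes (solid line) and of all genes tested (dashed line). For KO against WT, with oxLDL and untreated, the median of the 38 genes lies above the median of all genes under every scaling shown, while for oxLDL in WT both medians drop together with library totals.

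With oxLDL present, KO cells had more RNA of most lysosomal genes than WT cells. Of the 38 genes 27 were higher and 7 lower in KO, against 30.6% higher and 27.4% lower of all genes tested (57.9% in all). TMM-scaled values of KO and WT did not overlap for 33 members, against 62.8% of all genes. The median member stood at 0.53 log2, against 0.05 over all genes tested. Among the higher members the largest differences were in Atp6v0d2 (3.48 ± 0.04), a proton pump subunit, Ctse (3.06 ± 0.19), an aspartic protease, Tfeb (2.11 ± 0.19) and Lipa (2.01 ± 0.03), the acid lipase. Ctsc (-2.54 ± 0.05), Mitf (-0.98 ± 0.05) and Tfe3 (-0.52 ± 0.07) were lower. With library totals alone the split was 33 higher and 3 lower, with 7538 higher and 3302 lower among the 17291 genes tested. Of the 27 higher calls on the TMM scale 25 held under all 14 other settings.

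Without oxLDL the KO cells were already higher for most members. Of the 38 genes 27 were higher and 4 lower in untreated KO than in untreated WT (of all genes tested 14.8% were higher, 16.2% lower and 31% called in all), with a median of 0.34 log2 against -0.01 over all genes. The groups did not overlap for 33 members, against 44.9% of all genes. Ctse (2.37 ± 0.18), Atp6v0d2 (2.05 ± 0.04) and Ctsl (1.84 ± 0.08), a cysteine protease, differed most. Ctsc (-1.32 ± 0.05), Ppt1 (-0.17 ± 0.04) and Ctsz (-0.15 ± 0.05) had the lowest values among the members called lower; Neu1 was at -0.16 ± 0.06 and did not pass. With library totals alone 21 higher and 7 lower were called, with 1766 higher and 3849 lower among the 17291 genes tested. Of the 27 higher calls on the TMM scale 21 held under all 14 other settings. This comparison and the previous one use different libraries.

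In WT cells more members fell than rose with oxLDL. Of the 38 genes 20 fell and 7 rose (of all genes tested 27.2% fell, 23.9% rose and 51.2% were called in all), with a median of -0.14 log2 against -0.06 over all genes. The groups did not overlap for 28 members, against 58.6% of all genes. Atp6v0d2 (-1.52 ± 0.04), Lipa (-1.46 ± 0.03), Ctsf (-1.17 ± 0.40) and Tfeb (-1.14 ± 0.19) fell most, while Ctsc (1.19 ± 0.05), Mitf (0.78 ± 0.05) and Tfe3 (0.54 ± 0.07) rose most. The split rested on the scaling: with library totals alone 33 fell and 2 rose, namely Ctsc and Mitf. With that scaling 8322 of the 17291 genes tested fell and 2222 rose. This comparison shares WT libraries with both comparisons of genotypes, so their values are not independent.

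In KO cells no member was called with oxLDL (0 higher and 0 lower of 38; 0.0116% of all genes tested were called). The fitted changes ran from -0.09 to 0.48 log2 and the smallest adjusted p among the members was 0.527 in edgeR's test. An unadjusted p under 0.05 was reached by 4 members and by 1211 of all genes tested, and DESeq2 and limma called no member either. The groups did not overlap for 7 members, against 13.4% of all genes. For 36 of the 38 genes the 95% interval of the change lay within 1.5-fold in either direction. The exceptions were Tfeb, at 0.48 with an interval of 0.09 to 0.86, and Ctsf, at 0.17 with an interval of -0.66 to 0.99.

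**Figure D3:**
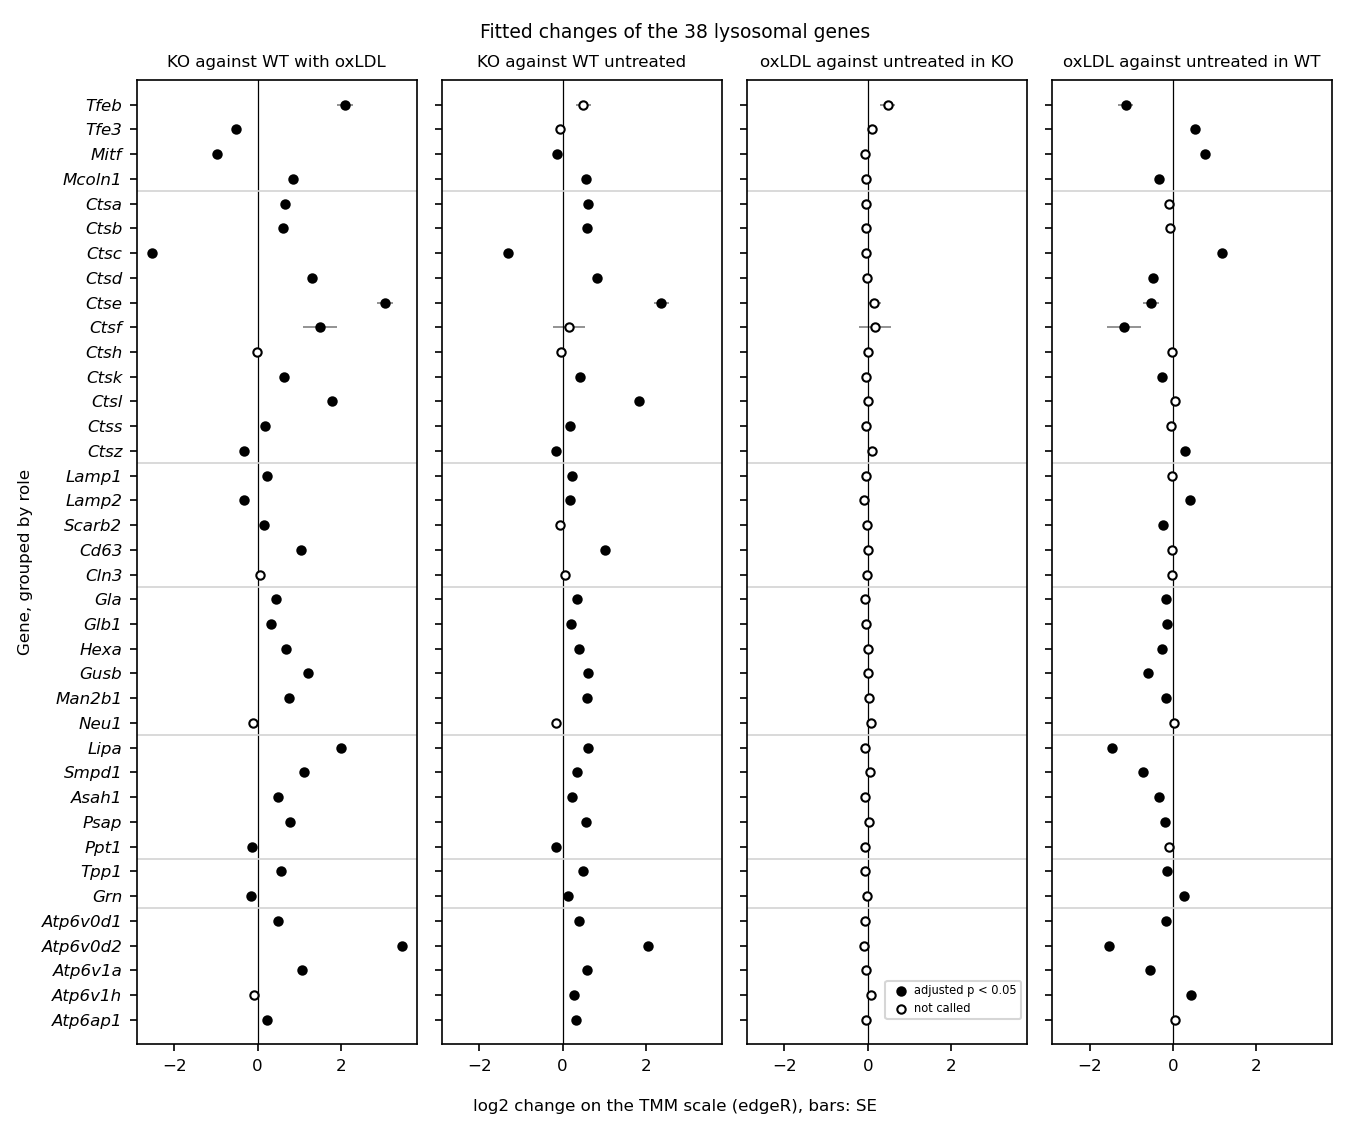
Fitted log2 change of each of the 38 genes (rows, grouped by role) in 4 comparisons, on the TMM scale with SE bars; filled points passed an adjusted p of 0.05. KO against WT points lie mostly right of 0 with and without oxLDL, oxLDL in KO points lie near 0, and oxLDL in WT points lie on both sides.

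Among the transcription factors, Tfeb and its relatives moved apart. Tfeb (chromosome 17, 47737030 to 47792419 on GRCm38) had 8.22, 9.49 and 11.6 FPKM in KO with oxLDL, 6.70, 7.68 and 6.62 in untreated KO, 2.55, 1.36 and 1.57 in WT with oxLDL and 4.65, 5.63 and 5.81 in untreated WT. KO libraries with oxLDL lay highest and WT libraries with oxLDL lowest, and no group of Tfeb values overlapped another. Its difference of KO against WT was 2.11 ± 0.19 with oxLDL (edgeR adjusted p = 1.95e-07) and 0.49 ± 0.18 untreated, which did not pass (adjusted p = 0.0529 in edgeR's test) but did in 2 of 14 other settings. Tfeb fell by 1.14 log2 with oxLDL in WT (edgeR adjusted p = 1.29e-04). Mitf, which also directs pigment cell and osteoclast genes, had 12.1, 13.2 and 13.2 FPKM in KO with oxLDL, 13.6, 13.5 and 13.1 in untreated KO, 20.5, 20.5 and 20.3 in WT with oxLDL and 14.9, 16.1 and 16.3 in untreated WT. WT libraries with oxLDL were highest here, above untreated WT, and all KO libraries lay below both. Mitf was at -0.98 ± 0.05 in KO against WT with oxLDL (edgeR adjusted p = 8.99e-11) and rose by 0.78 ± 0.05 with oxLDL in WT (edgeR adjusted p = 1.84e-09). Its untreated genotype difference was small (-0.13 ± 0.05, adjusted p = 0.0417 in edgeR's test) and held in 6 of 14 other settings. It no longer passed without replicate 1 of untreated KO (-0.14), replicate 2 of untreated KO (-0.14) or replicate 3 of untreated KO (-0.11). Leaving out replicate 2 of untreated WT (-0.12) or replicate 3 of untreated WT (-0.11) also lost it. So did upper-quartile scaling, a replicate block and having no filter on low counts. Tfe3 had 12.5, 11.96 and 13.6 FPKM in KO with oxLDL, 11.96, 12.004 and 11.7 in untreated KO, 16.3, 13.9 and 14.1 in WT with oxLDL and 12.7, 13.0 and 14.7 in untreated WT. Each KO group lay below the WT group of the same treatment, and the WT groups overlapped. On the TMM scale Tfe3 was lower in KO with oxLDL (-0.52 ± 0.07, edgeR adjusted p = 1.59e-05) and rose with oxLDL in WT (0.54 ± 0.07), a rise that with library totals was 0.13 and did not pass. The ratio of Tfeb to Tfe3 FPKM within a library does not depend on the scaling, and it was 0.658 to 0.850 in KO with oxLDL, 0.561 to 0.640 in untreated KO, 0.0981 to 0.156 in WT with oxLDL, and in untreated WT it was 0.366 to 0.432. This ratio and the others below were chosen after the values were seen. Mcoln1, the lysosomal calcium channel that acts upstream of TFEB, averaged 17.6 ± 1.3 FPKM in KO with oxLDL, 18.02 ± 0.3 in untreated KO, 7.86 ± 0.44 in WT with oxLDL and 13.1 ± 0.71 in untreated WT, and was higher in KO with oxLDL (0.86 ± 0.06) and untreated (0.56 ± 0.06).

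**Figure D4:**
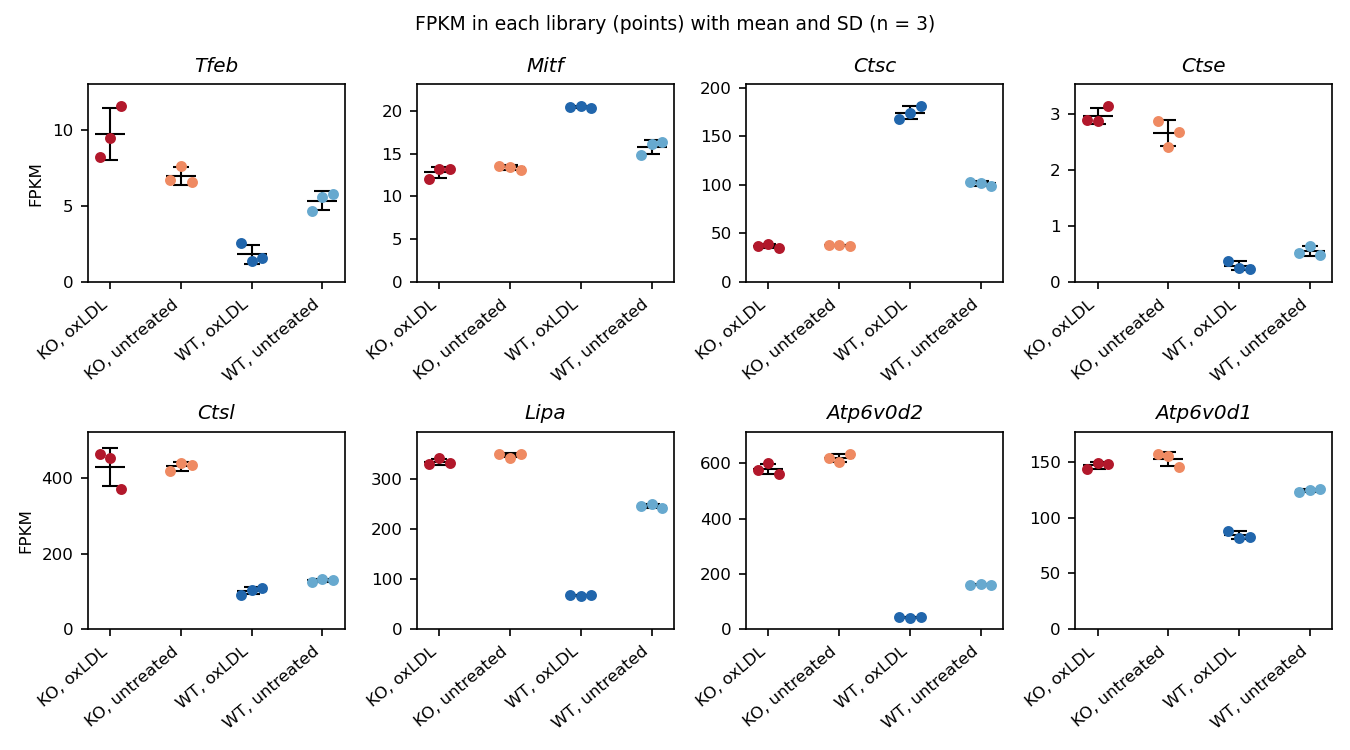
FPKM of 8 genes in each library (points) by group, with mean and SD (n = 3), on axes that start at 0. Tfeb, Ctse, Ctsl, Lipa and Atp6v0d2 are lowest in WT with oxLDL and highest in the KO groups, Atp6v0d1 shows the same order over a narrower range, and Mitf and Ctsc are highest in WT with oxLDL.

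The cathepsins, proteases of several catalytic classes, were mostly higher in KO: 8 of 11 with oxLDL and 7 of 11 untreated, with 2 lower in each (of all genes tested 30.6% were higher and 27.4% lower with oxLDL, 14.8% and 16.2% untreated). Their summed level was 22308 ± 1048 FPKM in KO with oxLDL, 22589 ± 594 in untreated KO, 10867 ± 308 in WT with oxLDL and 16472 ± 179 in untreated WT, with Ctsd the most abundant in every group. Ctsd was at 1.30 ± 0.04 in KO against WT with oxLDL and at 0.83 ± 0.04 untreated, and it fell with oxLDL in WT (-0.49 ± 0.04). The largest fold in this family belonged to Ctse, a second aspartic protease, at a far lower level: it had 2.89, 2.88 and 3.14 FPKM in KO with oxLDL, 2.87, 2.41 and 2.68 in untreated KO, 0.381, 0.245 and 0.233 in WT with oxLDL and 0.513, 0.649 and 0.485 in untreated WT. KO and WT libraries of Ctse were far apart, with edgeR adjusted p of 2.59e-09 with oxLDL and 8.55e-08 untreated. Its fall with oxLDL in WT (-0.53 ± 0.19) no longer passed without WT replicate 2 with oxLDL (-0.43), WT replicate 3 with oxLDL (-0.39) or replicate 2 of untreated WT (-0.40), nor in a fit of the WT libraries alone (-0.54).

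Ctsl, a cysteine protease of broad specificity, differed by genotype and, on the TMM scale, little by oxLDL. It had 466, 454 and 371 FPKM in KO with oxLDL, 419, 440.2 and 436 in untreated KO, 91.6, 105 and 108 in WT with oxLDL and 125, 133 and 132 in untreated WT. Every KO library lay above every WT library, at 1.78 ± 0.08 with oxLDL (edgeR adjusted p = 4.75e-11) and 1.84 ± 0.08 untreated (edgeR adjusted p = 1.22e-10). The oxLDL change of Ctsl in WT was 0.05 ± 0.08 on the TMM scale, not called, and -0.35 with library totals, which passed. Ctsl relative to Ctss within a library was 0.0822 to 0.0885 in KO with oxLDL, 0.0838 to 0.0858 in untreated KO, 0.0270 to 0.0298 in WT with oxLDL, and in untreated WT it was 0.0259 to 0.0269. Ctss, a cysteine protease that trims the invariant chain in antigen-presenting cells, averaged 4971 ± 397 FPKM in KO with oxLDL, 5104 ± 141 in untreated KO, 3575 ± 202 in WT with oxLDL and 4901 ± 79 in untreated WT. Its oxLDL change in WT was -0.05 ± 0.05 on the TMM scale, not called, and -0.46 with library totals, which passed. Its genotype differences of 0.17 ± 0.05 with oxLDL and 0.17 ± 0.05 untreated were called. With library totals they were 0.48, passing, and 0.056, not passing. In a fit of the libraries with oxLDL alone the first did not pass. On the TMM scale the first no longer passed without KO replicate 1 with oxLDL (0.13), WT replicate 1 with oxLDL (0.12) or WT replicate 2 with oxLDL (0.15), and the second without replicate 2 of untreated KO (0.14), replicate 3 of untreated KO (0.17), replicate 1 of untreated WT (0.16), replicate 2 of untreated WT (0.17) or replicate 3 of untreated WT (0.16). Ctsk, the collagen-degrading cathepsin of osteoclasts, lies 17423 bases from Ctss on chromosome 3 and was at 0.64 ± 0.06 and 0.43 ± 0.06 in the same comparisons.

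Ctsc ran against its family. It encodes a dipeptidyl peptidase that activates serine proteases of granules, and it had 37.1, 39.0 and 34.7 FPKM in KO with oxLDL, 37.6, 38.4 and 37.1 in untreated KO, 168, 174 and 181 in WT with oxLDL and 103, 102 and 98.7 in untreated WT. WT libraries with oxLDL were highest, untreated WT lay between, and the KO groups were low and overlapped. Ctsc was at -2.54 ± 0.05 in KO against WT with oxLDL (edgeR adjusted p = 3.95e-15), at -1.32 ± 0.05 untreated (edgeR adjusted p = 1.6e-11) and rose by 1.19 ± 0.05 with oxLDL in WT (edgeR adjusted p = 2.48e-11). Its FPKM relative to Ctsb was 0.0124 to 0.0134 in KO with oxLDL, 0.0126 to 0.0128 in untreated KO, 0.113 to 0.117 in WT with oxLDL, and in untreated WT it was 0.0468 to 0.0488. Ctsz, a carboxypeptidase, had 1118, 1077 and 1047 FPKM in KO with oxLDL, 989.9, 1059 and 945 in untreated KO, 1144, 1041 and 1099 in WT with oxLDL and 1180.4, 1168 and 1229 in untreated WT. Untreated WT was highest and the other groups lay close, with differences of -0.32 ± 0.05 in KO with oxLDL and -0.15 ± 0.05 in untreated KO. Its rise with oxLDL in WT (0.29 ± 0.05) turned to a fall with library totals (-0.12), where the KO difference with oxLDL was -0.02 and did not pass. The untreated difference of Ctsz held in 8 of 14 other settings. It no longer passed without replicate 1 of untreated KO (-0.15) or replicate 3 of untreated KO (-0.11). Leaving out replicate 1 of untreated WT (-0.15) or replicate 3 of untreated WT (-0.14) also lost it. So did upper-quartile scaling and having no filter on low counts.

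Ctsb, a cysteine protease that can leak from damaged lysosomes, and Ctsa, a serine carboxypeptidase that also shields galactosidase and sialidase, were higher in KO by similar amounts. Ctsb was at 0.62 ± 0.03 with oxLDL and 0.59 ± 0.03 untreated, and Ctsa at 0.66 ± 0.04 and 0.60 ± 0.04. Ctsh, an aminopeptidase, was called in neither comparison of genotypes (-0.01 ± 0.05 with oxLDL and -0.05 ± 0.05 untreated); with library totals it was 0.29 with oxLDL and -0.16 untreated and passed. Ctsf, the least abundant cathepsin, had 0.516, 0.510 and 0.319 FPKM in KO with oxLDL, 0.370, 0.350 and 0.485 in untreated KO, 0.0967, 0.0459 and 0.228 in WT with oxLDL and 0.404, 0.390 and 0.352 in untreated WT. It had at least 14 counts in every library, and all KO libraries with oxLDL lay above the WT libraries with oxLDL (1.5 ± 0.40, edgeR adjusted p = 0.00534). Its fall with oxLDL in WT (-1.17 ± 0.40) no longer passed without WT replicate 1 with oxLDL (-1.01), WT replicate 2 with oxLDL (-0.80), replicate 1 of untreated WT (-1.12) or replicate 2 of untreated WT (-1.16), nor in a fit of the WT libraries alone (-1.18).

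The membrane proteins of the lysosome changed less, apart from Cd63. Of these 5 genes 3 were higher and 1 lower in KO with oxLDL, and 3 were higher and 0 lower in untreated KO, where 57.9% of all genes were called with oxLDL and 31% untreated. Cd63, a tetraspanin of late endosomes and lysosomes, averaged 327 ± 26 FPKM in KO with oxLDL, 324 ± 27 in untreated KO, 128 ± 5.2 in WT with oxLDL and 172 ± 6.6 in untreated WT. KO exceeded WT by 1.05 ± 0.07 with oxLDL and 1.02 ± 0.07 untreated. Lamp1, a glycoprotein that lines the lysosomal membrane, was modestly higher in KO (0.23 ± 0.03 with oxLDL and 0.24 ± 0.03 untreated). Its relative Lamp2, which also takes part in chaperone-mediated autophagy, had 93.7, 101 and 93.7 FPKM in KO with oxLDL, 102, 100.5 and 105 in untreated KO, 93.6, 99.0 and 99.2 in WT with oxLDL and 95.8, 101 and 94.9 in untreated WT. In FPKM the groups of Lamp2 were nearly level. On the TMM scale Lamp2 rose with oxLDL in WT (0.41 ± 0.04, edgeR adjusted p = 5.25e-07) and was lower in KO with oxLDL (-0.32 ± 0.04) but higher in untreated KO (0.18 ± 0.04); with library totals these were -0.00034, -0.02 and 0.07 and none passed. Lamp2 relative to Lamp1 within a library was 0.0706 to 0.0770 in KO with oxLDL, 0.0745 to 0.0794 in untreated KO, 0.103 to 0.112 in WT with oxLDL, and in untreated WT it was 0.0767 to 0.0854. Scarb2, which carries glucocerebrosidase to the lysosome, fell with oxLDL in WT (-0.24 ± 0.05). Its higher level in KO with oxLDL (0.15 ± 0.05) no longer passed without KO replicate 1 with oxLDL (0.13), KO replicate 2 with oxLDL (0.13), WT replicate 1 with oxLDL (0.12) or WT replicate 2 with oxLDL (0.12). Cln3, a membrane protein whose loss causes a childhood storage disease, was at 0.06 ± 0.05 with oxLDL and 0.05 ± 0.05 untreated in KO against WT, neither called; with library totals these were 0.37, passing, and -0.057, not passing. Cln3 overlaps Apobr on the opposite strand by 876 bases, and without a stated strand setting their shared reads could not be told apart. Glb1, described below, overlaps Tmppe on the same strand by 6172 bases, with mean counts of 10606.5 for Glb1 and 1775 for Tmppe. How reads shared by Glb1 and Tmppe were assigned is not stated.

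The glycosidases, which remove sugars from glycolipids and glycoproteins, were higher in KO: 5 of 6 with oxLDL and 5 of 6 untreated, and none was lower, against 30.6% of all genes higher with oxLDL and 14.8% untreated. Their summed level was 1218 ± 15 FPKM in KO with oxLDL, 1216 ± 8.5 in untreated KO, 615 ± 16 in WT with oxLDL and 986 ± 7.1 in untreated WT. Gusb, which encodes β-glucuronidase, averaged 190.5 ± 6.5 FPKM in KO with oxLDL, 191 ± 1.6 in untreated KO, 66.98 ± 3.9 in WT with oxLDL and 135 ± 1.2 in untreated WT, and stood at 1.21 ± 0.04 with oxLDL and 0.61 ± 0.04 untreated in KO against WT. It fell with oxLDL in WT (-0.60 ± 0.04). Hexa, the α subunit of β-hexosaminidase, was the most abundant of them and averaged 751 ± 14 FPKM in KO with oxLDL, 747 ± 5 in untreated KO, 381 ± 9.5 in WT with oxLDL and 609.7 ± 3.9 in untreated WT. Hexa was at 0.68 ± 0.03 and 0.40 ± 0.03 in the KO comparisons, Man2b1, an α-mannosidase, at 0.77 ± 0.03 and 0.58 ± 0.03, and Gla, α-galactosidase A, at 0.44 ± 0.05 and 0.35 ± 0.05. Glb1, the β-galactosidase used as a senescence stain, was at 0.33 ± 0.05 and 0.21 ± 0.05; the untreated value with library totals was 0.10 and did not pass. The falls of Gla and Glb1 with oxLDL in WT (-0.17 ± 0.05 and -0.15 ± 0.05) were small: Gla no longer passed without WT replicate 1 with oxLDL (-0.13), WT replicate 2 with oxLDL (-0.16) or replicate 2 of untreated WT (-0.14), and Glb1 without WT replicate 2 with oxLDL (-0.11) or replicate 1 of untreated WT (-0.12). Neu1, the lysosomal sialidase, was called in no comparison in the main fit on the TMM scale. In KO against WT it stayed uncalled in 9 of 14 other settings with oxLDL and 10 of 14 untreated. With library totals its oxLDL change in WT was -0.37 and its KO difference was 0.19 with oxLDL and -0.27 untreated, all past the threshold.

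Of the 5 genes that break down lipids 4 fell with oxLDL in WT (27.2% of all genes), and 4 were higher in KO both with oxLDL (30.6% of all genes) and untreated (14.8%). Ppt1 was at -0.10 ± 0.04 with oxLDL in WT and did not pass; with library totals it was -0.51 and passed. Lipa encodes lysosomal acid lipase, which frees cholesterol from the esters of ingested lipoproteins. Lipa (chromosome 19, 34492318 to 34527474 on GRCm38) had 330.0, 342 and 332 FPKM in KO with oxLDL, 351, 343 and 349.8 in untreated KO, 67.4, 65.9 and 69.0 in WT with oxLDL and 247, 250.3 and 242 in untreated WT. WT libraries with oxLDL stood far below all others, and untreated WT lay below both KO groups. Lipa fell by 1.46 log2 with oxLDL in WT (SE 0.03, edgeR adjusted p = 1.15e-13), and KO was higher by 2.01 ± 0.03 with oxLDL (edgeR adjusted p = 1.04e-15) and 0.61 ± 0.03 untreated (edgeR adjusted p = 1.71e-09). Relative to Psap in the same library, Lipa was 0.0274 to 0.0288 in KO with oxLDL, 0.0289 to 0.0310 in untreated KO, 0.0115 to 0.0126 in WT with oxLDL, and in untreated WT it was 0.0276 to 0.0301, so WT with oxLDL stood apart and untreated WT overlapped both KO groups. Smpd1, acid sphingomyelinase, averaged 14.4 ± 0.72 FPKM in KO with oxLDL, 13.8 ± 0.53 in untreated KO, 5.36 ± 0.72 in WT with oxLDL and 11.8 ± 0.43 in untreated WT, fell with oxLDL in WT (-0.72 ± 0.08) and was higher in KO (1.12 ± 0.08 with oxLDL and 0.34 ± 0.08 untreated). Asah1, acid ceramidase, fell by 0.34 with oxLDL in WT and was at 0.48 ± 0.04 in KO with oxLDL; its difference in untreated KO (0.22 ± 0.04) was 0.11 with library totals and did not pass. Psap was at 0.78 ± 0.04 with oxLDL and 0.56 ± 0.04 untreated in KO against WT, and fell by 0.19 with oxLDL in WT. Ppt1, which strips fatty acids from proteins, had 34.6, 35.9 and 34.3 FPKM in KO with oxLDL, 36.9, 35.7 and 36.7 in untreated KO, 30.6, 30.9 and 31.4 in WT with oxLDL and 45.1, 44.9 and 42.0 in untreated WT. It was the member of this group that was lower in untreated KO (-0.17 ± 0.04, edgeR adjusted p = 0.0068). With oxLDL Ppt1 was also lower in KO (-0.13 ± 0.04), a call that held in 8 of 14 other settings. The value turned to 0.18 with library totals, the direction in which its FPKM groups lie. The call was also lost without KO replicate 3 with oxLDL (-0.12), with upper-quartile scaling and with no filter on low counts.

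Of the other lumenal proteins, Tpp1, a tripeptidyl peptidase, averaged 139 ± 1.8 FPKM in KO with oxLDL, 144 ± 4.3 in untreated KO, 76.4 ± 0.95 in WT with oxLDL and 111 ± 1.2 in untreated WT and was at 0.56 ± 0.04 with oxLDL and 0.48 ± 0.04 untreated in KO against WT. Grn, which encodes progranulin, a secreted protein that lysosomes cut into granulins, averaged 673 ± 17 FPKM in KO with oxLDL, 677 ± 14 in untreated KO, 604 ± 6.1 in WT with oxLDL and 665 ± 18 in untreated WT. Its direction hung on the scaling: KO with oxLDL was at -0.15 ± 0.04 on the TMM scale and 0.16 with library totals, and the oxLDL change in WT was 0.27 ± 0.04 and -0.14. Untreated KO was at 0.13 ± 0.04 for Grn, which with library totals was 0.02 and did not pass, nor did it pass without replicate 1 of untreated KO (0.13), replicate 2 of untreated KO (0.11) or replicate 2 of untreated WT (0.10).

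The proton pump held the widest difference of all members. All 5 pump genes were higher in untreated KO and 4 of 5 in KO with oxLDL, against 14.8% and 30.6% of all genes. Their summed level was 1144 ± 34 FPKM in KO with oxLDL, 1201 ± 8.1 in untreated KO, 356 ± 4.3 in WT with oxLDL and 627 ± 5.9 in untreated WT. Atp6v0d2 (chromosome 4, 19876841 to 19922605 on GRCm38) encodes the form of the V0 subunit d that is abundant in osteoclasts and some macrophages. It had 576, 600.2 and 562 FPKM in KO with oxLDL, 619, 602 and 634 in untreated KO, 42.1, 41.3 and 43.0 in WT with oxLDL and 159, 162 and 161 in untreated WT. The KO libraries lay far above untreated WT, and WT with oxLDL was lowest. KO exceeded WT by 3.48 ± 0.04 with oxLDL (edgeR adjusted p = 5.69e-17) and 2.05 ± 0.04 untreated (edgeR adjusted p = 2.25e-14), and it fell by 1.52 log2 with oxLDL in WT (SE 0.04, edgeR adjusted p = 1.59e-13). Its counterpart Atp6v0d1, the d form found in most cells, averaged 147 ± 3 FPKM in KO with oxLDL, 152 ± 6.4 in untreated KO, 84.2 ± 3.5 in WT with oxLDL and 124 ± 1.5 in untreated WT. It differed far less, at 0.50 ± 0.04 with oxLDL and 0.40 ± 0.04 untreated. The ratio of Atp6v0d2 to Atp6v0d1 in a library was 3.81 to 4.02 in KO with oxLDL, 3.89 to 4.37 in untreated KO, 0.477 to 0.523 in WT with oxLDL, and in untreated WT it was 1.28 to 1.29, so the more abundant form was Atp6v0d1 in WT with oxLDL and Atp6v0d2 in the other 3 groups. Atp6v1a, the catalytic subunit of V1, was at 1.08 ± 0.04 with oxLDL and 0.57 ± 0.04 untreated in KO and fell with oxLDL in WT (-0.55 ± 0.04). Atp6ap1, an accessory protein of pump assembly, was at 0.22 ± 0.03 and 0.32 ± 0.03 in KO. Atp6v1h, a regulatory V1 subunit, rose with oxLDL in WT (0.43 ± 0.06) and was at -0.08 ± 0.06 in KO with oxLDL, not called; with library totals these were 0.02, not passing, and 0.22, passing. Untreated KO was at 0.26 ± 0.06 for Atp6v1h, or 0.15 with library totals, which did not pass.

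The oxLDL change differed between genotypes for 20 of the 38 genes, with 14 called above and 6 called below 0 for KO minus WT (of all genes tested 22.1% above, 19.6% below and 41.7% called in all). The largest positive values were those of Tfeb (1.61 ± 0.26, edgeR adjusted p = 1.43e-04), Atp6v0d2 (1.43 ± 0.05, edgeR adjusted p = 2.33e-11) and Lipa (1.40 ± 0.05, edgeR adjusted p = 1.39e-11). The most negative were Ctsc (-1.22 ± 0.07, edgeR adjusted p = 1.67e-09), Mitf (-0.85 ± 0.06, edgeR adjusted p = 6.57e-08) and Lamp2 (-0.50 ± 0.06, edgeR adjusted p = 3.54e-06), the last at -0.09 and not passing with library totals. By role, 4 of 5 lipid genes, 3 of 6 glycosidases, 2 of 11 cathepsins and 2 of 5 pump genes were called above 0. Ctsl, with its wide difference between genotypes, was at -0.06 ± 0.11 and was not called; with library totals it was 0.35 and passed. With library totals the interaction split was 33 higher and 2 lower, with 7174 higher and 1835 lower among the 17291 genes tested.

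Other lysosomal genes, taken from 6 lists outside the 38, were counted in the same way. Of 83 genes 54 were higher and 17 lower in KO with oxLDL, 52 and 10 in untreated KO, and 21 rose and 47 fell with oxLDL in WT; with oxLDL in KO none was called. Of all genes tested 30.6% were higher and 27.4% lower in KO with oxLDL, 14.8% and 16.2% in untreated KO, and 23.9% rose and 27.2% fell with oxLDL in WT. On the TMM scale the share of the 83 genes that rose in WT was thus near that of all genes. These lists were not recounted with library totals, so how far this rests on the scaling is not known. Among 13 further pump subunits 6 were higher and 3 lower in KO with oxLDL, beside the 30.6% and 27.4% of all genes. In untreated KO 9 of them were higher and 0 lower, beside 14.8% and 16.2%. Atp6v0a1, the V0 subunit a1, averaged 173 ± 10.1 FPKM in KO with oxLDL, 179 ± 8.6 in untreated KO, 25.4 ± 1.7 in WT with oxLDL and 61.1 ± 2 in untreated WT (2.47 ± 0.06 in KO against WT with oxLDL). Atp6v1c1 was also higher (1.15 ± 0.05), and Atp6v1e1 (-0.63 ± 0.05) and Atp6v0a2 (-0.42 ± 0.05) were lower.

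Of 30 other hydrolases 22 were higher and 4 lower in KO with oxLDL, beside 30.6% and 27.4% of all genes. The same shares apply to the lists below. Pla2g15, a lysosomal phospholipase, averaged 108 ± 4.9 FPKM in KO with oxLDL, 108 ± 4.4 in untreated KO, 9.27 ± 0.77 in WT with oxLDL and 66.6 ± 1 in untreated WT (3.24 ± 0.06 in KO against WT with oxLDL). Sgsh, a heparan sulfatase, was at 2.68 ± 0.09 there and fell with oxLDL in WT (-3.03 ± 0.09). Without oxLDL its mean FPKM lay the other way, at 13.4 ± 1.0 in untreated KO and 19.9 ± 0.82 in untreated WT. The acid phosphatases Acp5 (-2.50 ± 0.05) and Acp2 (-1.76 ± 0.04) were lower in KO with oxLDL and rose with oxLDL in WT (0.88 ± 0.05 and 0.72 ± 0.04). Of 19 other membrane proteins 13 were higher, among them the ion channel gene Tpcn1 (4.68 ± 0.08) and the nucleoside transporter gene Slc29a3 (2.03 ± 0.05), and 5 were lower, with the chloride transporter gene Clcn7 at -1.81 ± 0.04.

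Of 6 sorting genes 4 were higher and 2 lower in KO with oxLDL: Sort1, a sorting receptor, was at 3.18 ± 0.06, and M6pr, a mannose 6-phosphate receptor, at -0.88 ± 0.05. Of 11 genes of nutrient sensing at the lysosome 9 were higher and 1 lower. Rragd, a Rag GTPase gene that TFEB is known to induce, averaged 14.8 ± 0.9 FPKM in KO with oxLDL, 15.6 ± 0.13 in untreated KO, 1.01 ± 0.079 in WT with oxLDL and 7.13 ± 0.067 in untreated WT (3.56 ± 0.07 in KO against WT with oxLDL). Among 4 cathepsin inhibitors the serpin gene Serpina3g and the cystatin gene Cst7 were lower in KO. Serpina3g averaged 1.13 ± 0.21 FPKM in KO with oxLDL, 0.685 ± 0.12 in untreated KO, 279 ± 18 in WT with oxLDL and 29.1 ± 5.2 in untreated WT. Cst7 averaged 0.173 ± 0.096 FPKM in KO with oxLDL, 0.280 ± 0.11 in untreated KO, 25.4 ± 1.7 in WT with oxLDL and 5.83 ± 0.13 in untreated WT. Their KO differences with oxLDL were -8.24 ± 0.17 and -7.42 ± 0.25, and both rose with oxLDL in WT (3.66 ± 0.13 and 2.53 ± 0.18). The more general inhibitor genes Cst3 and Cstb were called in neither comparison of genotypes. Cst3 was at 0.63 ± 0.33 with oxLDL and -0.86 ± 0.34 untreated, and Cstb at -0.13 ± 0.12 and -0.27 ± 0.12.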

How the data were processed

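Poly(A) RNA of 12 libraries was sequenced in pairs on an Illumina NovaSeq, per the labels' protocols, and HISAT2 2.0, Bowtie 0.12.2 and build mm8 are named in the submitters' processing notes. How reads were counted (tool, annotation, strand) is not given in the sources used here. The deposited table holds raw read counts per gene, and FPKM values that the authors made before deposit, per the file headers. Of 21990 genes matched to RefSeq by Entrez identifier 99.93% overlapped their GRCm38.p6 position, so positions are given as GRCm38 although mm8 is named.

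The counts were tested with edgeR 4.0.16 in R 4.3.3: filterByExpr, TMM, and a quasi-likelihood fit of the 4 groups together. Benjamini-Hochberg adjusted p-values run over all 17291 genes tested. FPKM means have SD over n = 3 libraries. The 14 to 19 other settings per comparison were other scalings, DESeq2 1.42.0, limma 3.58.1 on log2(FPKM + 1) and log2(FPKM + 0.1), no filter, a replicate block, only the groups compared, and each library left out. The scripts were tested on simulated counts. With 3 libraries against 3, the smallest p of an exact permutation test is 0.1, so tests come from the fit across all genes. The 38 genes and the other lists were chosen with earlier results of these data known. Every member was a named gene; values per library were given for the TFEB family and up to 3 called members of largest change per direction and comparison, and up to 2 genes per direction from each other list. No sequences are shown.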

Additional observations from a re-analysis of the deposited data

Results flagged for a closer look

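The oxLDL change differed between KO and WT, by edgeR's interaction test on the TMM scale, for 20 of the 38 members. Of all genes tested 41.7% were called, 22.1% above 0 and 19.6% below. Among the called members the log2 change in KO minus that in WT was positive for Tfeb (1.61), Atp6v0d2 (1.43), Lipa (1.40), Smpd1 (0.78), Ctse (0.69), Gusb (0.60), Atp6v1a (0.50), Ctsd (0.47), Mcoln1 (0.30), Hexa (0.28), Asah1 (0.26), Scarb2 (0.22), Psap (0.21) and Man2b1 (0.19). It was negative for Ctsc (-1.22), Mitf (-0.85), Lamp2 (-0.50), Tfe3 (-0.45), Atp6v1h (-0.34) and Grn (-0.28). None of these genes passed for oxLDL in KO on its own. Of the 6 negative calls Ctsc and Mitf held with library totals alone. The call of Ctse was lost when any of 9 libraries was left out (0.55 to 0.74). These were KO replicates 1, 2 and 3 with oxLDL and replicates 2 and 3 of untreated KO. In WT they were replicates 2 and 3 with oxLDL and replicates 1 and 2 untreated. With no filter on low counts the call of Ctse was lost as well. That of Scarb2 was lost without KO replicate 1 with oxLDL (0.20), KO replicate 2 with oxLDL (0.20), replicate 1 of untreated KO (0.19), WT replicate 1 with oxLDL (0.19), WT replicate 2 with oxLDL (0.19), replicate 1 of untreated WT (0.21) or replicate 2 of untreated WT (0.20). TMM factors moved with these groups. They ran from 1.03 to 1.04 in KO libraries, 0.832 to 0.843 in WT libraries with oxLDL and 1.10 to 1.13 in untreated WT. Without these factors, with library totals alone, 33 members were called above 0 and 2 below. Why the factors differed between groups was not tested.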

How the results depend on the processing

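Of 2850 recomputed member values 2594 kept their side of the threshold and, where called, their direction; 104 no longer passed, 103 newly passed and 49 changed direction with a call on either side. All direction changes came with library totals or with limma on FPKM, which share that scaling. With library totals they were, for oxLDL in WT, Ctsl (-0.35), Ctsz (-0.12), Lamp2 (-0.00034), Neu1 (-0.37), Grn (-0.14) and Atp6ap1 (-0.35); for KO against WT with oxLDL, Ctsh (0.29), Neu1 (0.19), Ppt1 (0.18), Grn (0.16) and Atp6v1h (0.22); and for the interaction, Ctsl (0.35), Ctsz (0.24), Lamp1 (0.41), Grn (0.13), Atp6v1h (0.072) and Atp6ap1 (0.32). Limma on log2(FPKM + 1) reversed the same genes except Lamp2, with other values for Neu1 (-0.36) for oxLDL in WT; Neu1 (0.18), Ppt1 (0.17), Atp6v1h (0.21) for KO against WT with oxLDL; Ctsl (0.34), Lamp1 (0.40), Atp6v1h (0.063), Atp6ap1 (0.31) for the interaction. Limma on log2(FPKM + 0.1) did so too, with other values for Ctsl (-0.36) for oxLDL in WT; Ppt1 (0.17) for KO against WT with oxLDL; Lamp1 (0.40), Atp6v1h (0.066) for the interaction. Members called in the interaction numbered 20 with TMM, 35 with library totals (33 higher and 2 lower) and 34 with either limma fit. Of the 17291 genes tested 7217 were called with TMM, 9009 with library totals, and 9136 and 9162 with limma. Genes called for oxLDL in KO numbered 2 of all tested, against 98 with DESeq2, 61 with the KO libraries alone, 1 with no filter, 1 and 0 with limma, and 0 to 3 with 1 library left out; no member was among them under any setting. With library totals the share of called genes that were higher was 21.1% against 46.8% with TMM for oxLDL in WT, 69.5% against 52.8% for KO against WT with oxLDL, 31.5% against 47.8% untreated and 79.6% against 53.0% for the interaction. The labels do not say whether replicate numbers pair the libraries. Same-numbered libraries of different groups had correlations of -0.04 to 0.03 in their deviations from group means. Of the 12 libraries 2 correlated best with their own number. These values gave no sign of pairing, but they cannot show whether same-numbered libraries shared an animal, day or batch. With the replicate block 0 genes were called for oxLDL in KO and 29 members for KO against WT untreated (31 without it), with Mitf (-0.13) and Ctss (0.16) no longer passing; it changed no other member call. Leaving out 1 library gave 23 to 28 called members for oxLDL in WT, 28 to 29 for KO against WT untreated, 32 to 35 with oxLDL and 18 to 21 for the interaction. The shifts between TMM and library totals in edgeR come from the TMM factors, which alone differ between those fits. Why the factors differed between groups was not tested, nor were the causes of the other shifts.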
